A study of Oryza sativa with 8 samples.

Results

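The 6 genes described here encode MYB transcription factors that earlier work in rice linked to cold, drought or salt. They were chosen by locus identifier, and their levels played no part in the rule: MYB2 (LOC_Os03g20090), MYB4 (LOC_Os04g43680), MYB3R-2 (LOC_Os01g62410), MYBS3 (LOC_Os10g41200), MYB48 (LOC_Os01g74410) and MYB91 (LOC_Os12g38400). All 6 were found among the 55797 genes with a single locus on the 12 chromosomes, and all 6 were among the 23776 genes tested.

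Transcripts were measured by RNA sequencing in rice (Oryza sativa, cultivar Nipponbare) seedlings raised for 2 weeks in liquid culture in a greenhouse. Salt-treated plants received 150 mmol NaCl, an amount the labels give without a volume, and were harvested after 24 hours with plants kept in normal medium. Each of the 4 groups (untreated leaf, salt-treated leaf, untreated root, salt-treated root) has 2 libraries. No group carries a transgene or mutation, and the labels do not say how many plants went into a library or whether its replicate came from a separate culture, so p-values measure only the spread between these libraries.

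MYB proteins bind DNA through helix-turn-helix repeats and form one of the largest families of plant transcription factors. Plants use them to set responses to cold, drought, salt, sugar supply and abscisic acid, and also to control cell division and organ growth. Among the 6, MYBS3 is known as a repressor in sugar and cold signalling, MYB3R-2 as an activator of cell cycle genes, and MYB91 as a regulator of both growth and salt tolerance. MYB2, MYB4 and MYB48 are known from overexpression lines with better stress tolerance.

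In salt-treated leaves MYB48 fell 7.63-fold on the log2(FPKM + 1) scale, while MYB3R-2 and MYBS3 rose less than 2-fold each. In salt-treated roots MYB48 and MYBS3 fell and MYB91 rose. MYBS3 therefore changed in opposite directions in leaf and root. MYB2 was lower with salt in both tissues without passing the test, and MYB4 differed between the root control libraries by more than it changed with salt. The plot of levels by library shows all 48 values.

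**Figure D1:**
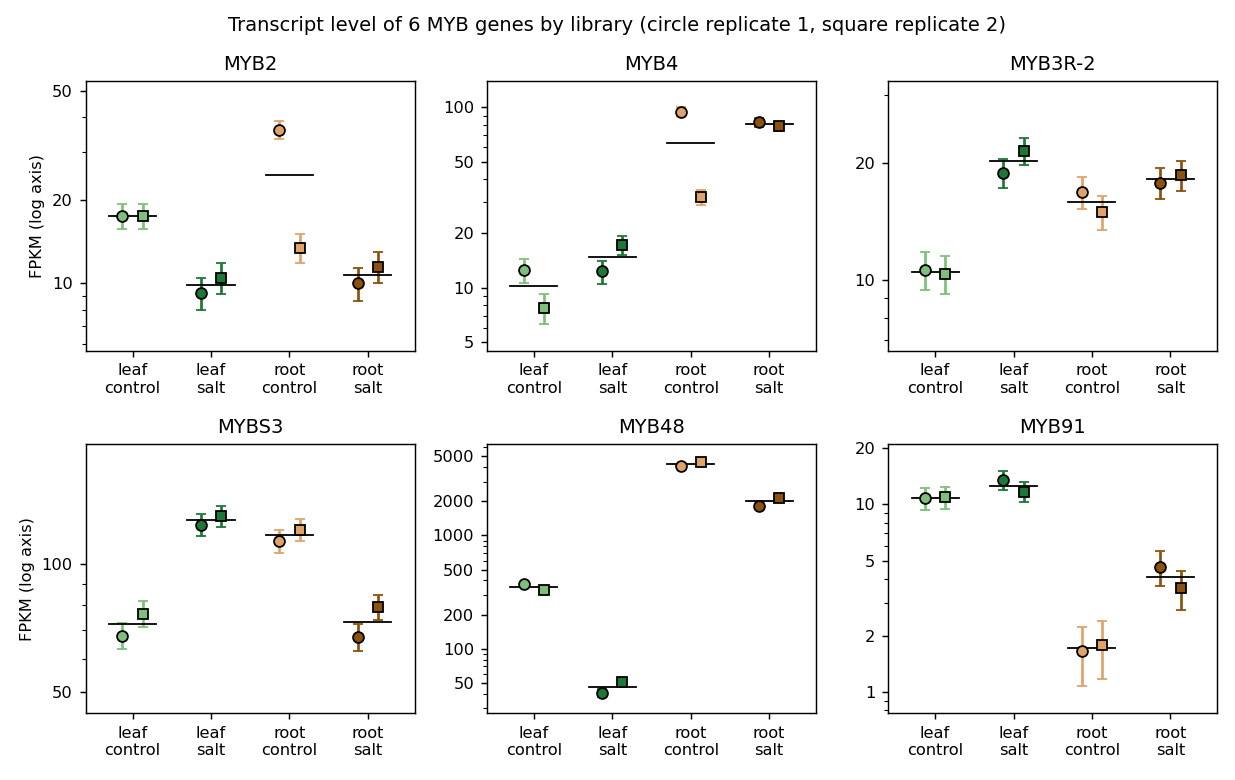
FPKM (log axis, a different range in each panel) of the 6 MYB genes in the 8 libraries. Circles are replicate 1, squares replicate 2, bars the deposited confidence bounds of each library and horizontal lines the group means. MYB48 lies between 1832 and 4447 FPKM in root and between 40.6 and 373 in leaf, and MYB2 and MYB4 have widely separated root control libraries.

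The deposited values are FPKM, fragments per kilobase of transcript and per unit of mapped fragments, so levels can be compared between genes. Each comes with confidence bounds below and above it for its own library. Fragments implied by these bounds, a lower estimate of depth, summed to between 9060000 and 10700000 per library. Titles assign the tissues, while the tissue field reads seedling for leaf libraries and shoot for root libraries. In the leaf libraries the summed FPKM of 13 loci taken as leaf markers was 45397 to 51705, and in the root libraries 101.9 to 532.9. The 9 loci taken as root markers summed to 2029 to 2805 FPKM in root and 6.60 to 13.2 in leaf, with all 9 above 0 in every root library. Leaf markers in root control replicate 1 stood at 1.09% of the leaf control mean, against 0.208% to 0.291% in the other root libraries. This library bears on all root control values below.

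Differences are on the log2(FPKM + 1) scale, fitted with limma over all 23776 tested genes, and the words called, rose and fell are kept for a Benjamini-Hochberg adjusted p under 0.05. In leaf, 3 of the 6 genes were called (2 higher, 1 lower), where 33.8% of tested genes were called (14.8% higher, 18.9% lower). In root, 3 of 6 were called (1 higher, 2 lower), where 43.4% of tested genes were called (29.1% higher, 14.4% lower). For 4 of 6 the response itself differed between the tissues (2 more positive in root, 2 in leaf), against 32.8% of tested genes (23.1% and 9.71%). With 6 genes these counts say little, and the genes are described singly. In bulk tissue, fewer cells that express a gene and less RNA per cell cannot be told apart.

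**Figure D2:**
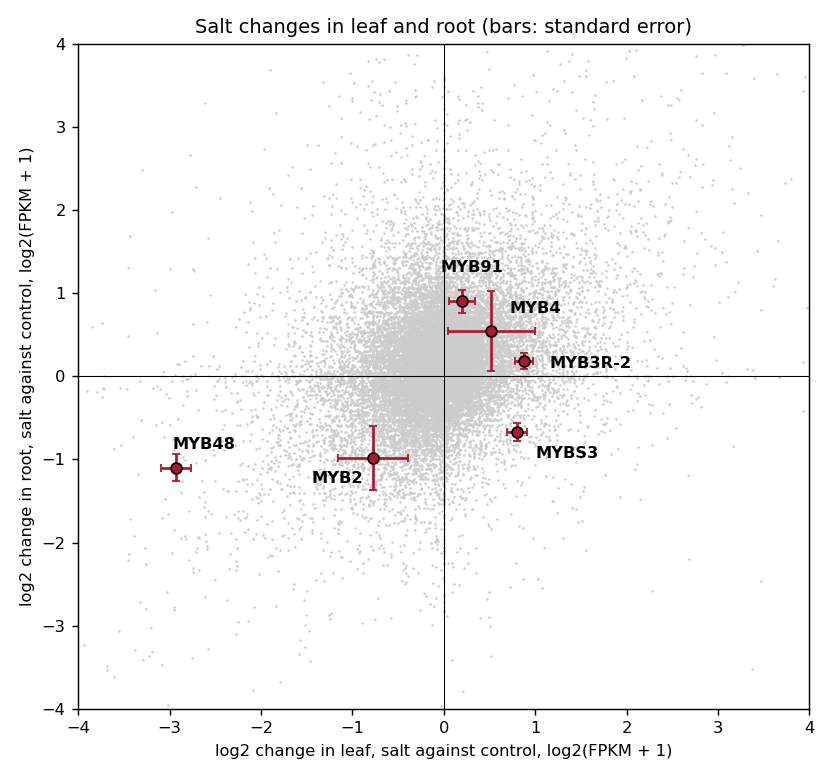
log2 change with salt in leaf (horizontal axis) and root (vertical axis) on the log2(FPKM + 1) scale, for 23776 tested genes (grey) and the 6 MYB genes (red, with standard errors). MYBS3 lies to the right of 0 and below 0, MYB48 far to the left at -2.93 in leaf. There are 81 genes outside the axis limits of 4 in either direction.

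MYB48 (chromosome 1, 43096392 to 43097974 as deposited, build not given in the sources used here) is known to improve drought and salt tolerance in rice when overexpressed. It was the most abundant of the 6 in every group except salt-treated leaf, where MYBS3 was higher (124 and 130 FPKM). In root MYB48 had 4084 and 4447 FPKM without salt and 1832 and 2167 FPKM with salt. In leaf it had 373 and 333 FPKM without salt and 40.6 and 50.5 FPKM with salt. No library of one group overlapped with any of another, so the order was root control, root salt, leaf control, leaf salt. Among tested genes it ranked 10 and 9 by FPKM in the root control libraries, 20 and 15 in root salt, 185 and 213 in leaf control, and 2953 and 2348 in leaf salt. In root controls this 1 gene took 0.543% and 0.561% of all summed FPKM.

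MYB48 fell by 2.93 on the log2 scale in leaf with a standard error of 0.17 (limma adjusted p = 8.06e-05). Its change was larger than those of 99.3% of tested genes. In root MYB48 fell by 1.10 on the log2 scale (standard error 0.17, limma adjusted p = 0.00249). The fall was smaller in root than in leaf by 1.84 (standard error 0.24, limma adjusted p = 0.00228). The root call was lost under 1 of 17 alternatives, with only root libraries in the model (limma adjusted p = 0.13). With quantile normalization the root change was -0.52 and narrowly kept the call (limma adjusted p = 0.0469).

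Without salt, MYB48 was 12.1 times as high in root as in leaf by mean FPKM, and with salt 43.9 times. Both tissue differences were called (3.59 and 5.43 on the log2 scale, limma adjusted p = 2.95e-06 and 6.22e-07). Between the controls 5 of the 6 genes were called (4 higher in root, 1 lower), and 67.4% of tested genes were (39.1% higher, 28.3% lower). With salt 4 of the 6 were called (2 higher, 2 lower), and 72.2% of tested genes were (47.7% higher, 24.5% lower).

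MYBS3 (chromosome 10, 22128439 to 22131669), a MYB repressor of an α-amylase gene under sugar and of the DREB1 cold pathway, rose in leaf and fell in root. Leaf libraries had 67.9 and 76.5 FPKM without salt and 124 and 130 FPKM with salt. Root libraries had 113 and 121 FPKM without salt and 67.4 and 79.2 FPKM with salt. The salt libraries lay outside the range of their controls in each tissue, and leaf salt lay above root control. Leaf control and root salt overlapped, at 72.2 ± 6.08 and 73.3 ± 8.38 FPKM (SD, n = 2).

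In leaf the change of MYBS3 was 0.81 (standard error 0.11, limma adjusted p = 0.00195) and in root -0.67 (standard error 0.11, limma adjusted p = 0.0032). The difference, root minus leaf, was -1.48 with a standard error of 0.15 (limma adjusted p = 0.00122), and a difference in this direction was called for 9.71% of tested genes. The tissue order turned with treatment. Without salt MYBS3 was higher in root by 0.69 (limma adjusted p = 0.0012), and with salt the root minus leaf difference was -0.79 (limma adjusted p = 0.000555). Over the 17 alternatives, the leaf change of MYBS3 ranged from 0.72 to 0.89 and the root change from -0.85 to -0.56, called each time.

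MYB3R-2 (chromosome 1, 36122778 to 36128487), of the class of MYB proteins with an extra repeat that acts on mitotic cyclin genes, rose in leaf. It had 10.6 and 10.4 FPKM in leaf controls and 18.9 and 21.5 FPKM in salt-treated leaves. In root it had 16.9 and 14.98 FPKM without salt and 17.8 and 18.6 FPKM with salt. The groups did not overlap in either tissue, but in root the gap was small. On the log2 scale the root change was 0.014 with scaling to the 75th percentile and 0.01 with quantile normalization.

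The leaf change of MYB3R-2 was 0.88 (standard error 0.10, limma adjusted p = 0.000999) and the root change 0.19 (95% interval -0.06 to 0.43, limma adjusted p = 0.184). The difference, root minus leaf, was -0.69 (standard error 0.14, limma adjusted p = 0.0119). Root controls were above leaf controls by 0.55 (limma adjusted p = 0.00243). With salt, root stood at -0.14 against leaf (limma adjusted p = 0.246). That comparison was called under scaling to the 75th percentile and under quantile normalization, both at -0.34 (limma adjusted p = 0.0173 and 0.0156).

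MYB91 (chromosome 12, 23554928 to 23560551), known in rice for coordinating growth and salt tolerance, was the only one of the 6 with a called excess in leaf controls over root controls, and it rose in root. Its leaf values were 10.7 and 10.9 FPKM without salt and 13.5 and 11.7 FPKM with salt. Its root values were 1.65 and 1.79 FPKM without salt and 4.65 and 3.57 FPKM with salt. Every leaf library was above every root library, and every salt library was above the controls of its tissue. Root control replicate 1, the root library with the most leaf marker transcripts, had the lower of the root control values. The bounds of the root controls overlapped, at 1.08 to 2.22 and 1.17 to 2.40 FPKM. The part of leaf transcripts in these values was not tested.

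In root MYB91 rose by 0.90 (standard error 0.14, limma adjusted p = 0.00257), and its mean FPKM was 2.39 times as high. In leaf the change was 0.20 (95% interval -0.13 to 0.53, limma adjusted p = 0.327). The difference between the tissues, 0.71, was called (limma adjusted p = 0.0331), but not under many alternatives. The call was lost with any 1 library left out other than root salt replicate 2 (limma adjusted p 0.0558 to 0.105), and kept without that one (0.86, limma adjusted p = 0.0214). It was also lost with a pseudocount of 5 (0.29, limma adjusted p = 0.112), without a filter on low values (0.71, 0.054), with scaling to the 75th percentile (0.55, 0.0801) and with quantile normalization (0.45, 0.169). Because root levels were low, the size of the root change depended on the pseudocount, being 0.44 with 5 and 1.201 with 0.1 in place of 1. The root minus leaf difference was -2.12 without salt and -1.42 with salt (limma adjusted p = 1.38e-05 and 9.56e-05).

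MYB2 (chromosome 3, 11326079 to 11328322), known for improving tolerance to salt, cold and dehydration when overexpressed in rice, was lower with salt in all comparisons of libraries within a tissue. In leaf it had 17.6 FPKM in both controls and 9.21 and 10.5 FPKM with salt. In root it had 36.1 and 13.5 FPKM without salt and 10.0005 and 11.5 FPKM with salt. The groups did not overlap in either tissue. Root control replicate 1 was 2.68 times as high as its replicate, which lay close to the salt libraries.

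Neither change of MYB2 was called, at -0.78 in leaf (95% interval -1.69 to 0.14, limma adjusted p = 0.169) and -0.98 in root (95% interval -1.90 to -0.07, limma adjusted p = 0.0795). The model uses 1 spread per gene for all 4 groups, and the distance between the root controls entered the leaf test. With only leaf libraries in the model, the same leaf change had a limma adjusted p of 0.0153. Without root control replicate 1 and without root control replicate 2 it was 0.00433 and 0.00402. The root change was -0.30 without root control replicate 1 and -1.66 without root control replicate 2, and it was called without replicate 2 (limma adjusted p = 0.00121). It was also called under quantile normalization, at -1.18 (limma adjusted p = 0.0432). The difference of the salt change between the tissues was -0.20 (limma adjusted p = 0.808). It was 0.48 without root control replicate 1, and -0.88 and called without root control replicate 2 (limma adjusted p = 0.0166). Root against leaf controls likewise went from 0.32 to -0.36 without root control replicate 1, and to 0.997 and called without replicate 2 (limma adjusted p = 0.00127).

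MYB4 (chromosome 4, 25843038 to 25844912), known for raising cold tolerance when overexpressed, was a root-preferring gene. Root libraries had 94.8 and 31.7 FPKM without salt and 82.8 and 78.5 FPKM with salt. Leaf libraries had 12.6 and 7.74 FPKM without salt and 12.3 and 17.3 FPKM with salt. Every root library was above every leaf library, while salt and control overlapped within each tissue. The deposited bounds of the root controls, 89.6 to 100 and 28.6 to 34.8 FPKM, did not meet.

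Root was above leaf by 2.36 without salt and by 2.38 with salt for MYB4 (limma adjusted p = 0.004 and 0.00342). Its salt change was 0.52 in leaf (95% interval -0.62 to 1.66, limma adjusted p = 0.46) and 0.54 in root (95% interval -0.60 to 1.69, limma adjusted p = 0.404). The root value was 1.32 and called without root control replicate 1 (limma adjusted p = 0.0202), and -0.23 without root control replicate 2. No direction can be given for MYB4 with salt in root from these libraries.

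**Figure D3:**
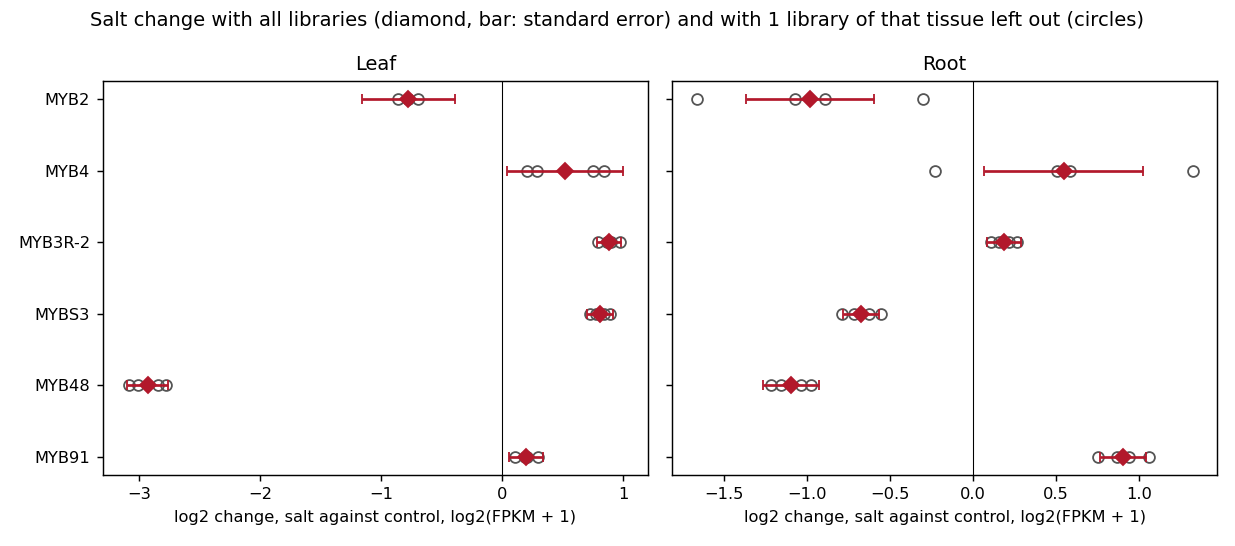
log2 change with salt in leaf (left) and root (right) on the log2(FPKM + 1) scale for each MYB gene. Diamonds with standard errors use all libraries, and open circles leave out 1 library of that tissue. In root the circles of MYB4 reach from -0.23 to 1.32 and those of MYB2 from -1.66 to -0.30, while those of MYBS3 and MYB48 stay below 0 and those of MYB91 above it.

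The gap between the root control libraries, replicate 1 minus replicate 2, was 1.36 on the log2 scale for MYB2 and 1.55 for MYB4, larger than for 97.7% and 98.1% of tested genes. For the other 4 genes it was between -0.12 and 0.16, beside a median absolute gap of 0.15 over tested genes. Of tested genes, 2.56% were at least 2-fold higher in root control replicate 1 and 1.33% in replicate 2. Leaf levels of MYB4 were under those of either root control. The leaf controls of MYB2, both at 17.6 FPKM, lay between its root controls (13.5 and 36.1 FPKM). The part of leaf transcripts in either gap was not tested.

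The gene whose profile over the 8 libraries was most like each MYB gene was taken by the Pearson correlation of log2(FPKM + 1). These correlations are descriptions, since the 8 points come from 4 groups and tissue dominates many of them. A gene picked this way shares the main features of the profile by selection. For MYB2 it was LOC_Os10g35630 (chromosome 10, 19053652 to 19056108) with r = 0.977, the only gene at 0.95 or more. That gene had 88.1 and 24.2 FPKM in the root controls and 21.4 and 20.8 in root salt. The gap between the root controls was part of the profile it was matched on. For MYB4 it was LOC_Os05g39720 (chromosome 5, 23310474 to 23313449) with r = 0.994, at 21.3 and 7.98 FPKM in root controls, and 250 genes reached 0.95.

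The closest profile to MYBS3 was that of LOC_Os02g04369 (chromosome 2, 1928625 to 1929506), with r = 0.986, and only 6 genes reached 0.95. It had 10.6 and 12.1 FPKM in leaf controls, 25.0 and 24.6 in leaf salt, 20.7 and 22.9 in root controls, and 12.5 and 13.4 in root salt. The match on the MYBS3 profile selects for this crossing of tissues. MYB3R-2 was closest to LOC_Os06g14750 (r = 0.987, with 52 genes at 0.95). MYB48 was closest to LOC_Os05g38040 (r = 0.999) and MYB91 to LOC_Os09g24700 (r = 0.999), with 881 and 728 genes at 0.95.

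A list of 10 other MYB loci showed no common direction. In leaf 3 rose, 1 fell and 6 missed the threshold, where 14.8% of all tested genes rose and 18.9% fell. The median change was 0.04 beside -0.05 over all tested genes. In root 4 rose, 2 fell and 4 were not called, where 29.1% of all tested genes rose and 14.4% fell. The median was 0.39 beside 0.13. The largest called rise was that of LOC_Os04g49450, from 4.001 and 4.44 to 28.5 and 26.4 FPKM in leaf (2.45 on the log2 scale, limma adjusted p = 0.00163). In root it went from 0.276 and 0.207 to 16.4 and 7.15 FPKM (3.26, limma adjusted p = 0.000445). The largest called fall in root was that of LOC_Os01g34060, from 33.4 and 37.3 to 11.3 and 14.8 FPKM (-1.38, limma adjusted p = 0.00053). The count of 4 was not stable. With either other scaling, with only root libraries in the model, and with any 1 library left out other than root control replicate 1, 2 of the 10 rose in root. The 1 that fell in leaf was not called without root salt replicate 1, root salt replicate 2, leaf control replicate 2 or leaf salt replicate 2. That call was also lost with a pseudocount of 0.1, without a filter on low values, with quantile normalization and with the replicate block.

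A second list held 16 loci that earlier work placed downstream of these factors or in their pathways, of which 15 were tested. It was assembled with earlier results of these data known. It includes genes known from stress responses in general, some of them with neighbouring identifiers. Whether any of their changes came from a MYB factor was not tested. In leaf 9 rose and 6 missed the threshold, where 14.8% of all tested genes rose and 18.9% fell. The median change was 0.98 beside -0.05 over all tested genes. With only leaf libraries in the model 2 of the 15 fell, beside 4012 of all 23776 tested genes. The number that fell in leaf also changed with either root control replicate left out. In root 10 rose, 1 fell and 4 were not called, where 29.1% of all tested genes rose and 14.4% fell. The median was 0.97 beside 0.13. The largest rises in root were those of LOC_Os11g26750, from 2.05 and 3.90 to 414 and 255 FPKM (6.399, limma adjusted p = 8.11e-05), and LOC_Os11g26760 (5.45). The one that fell in root was LOC_Os08g36910, from 11.8 and 11.6 to 1.05 and 0.920 FPKM (-2.67, limma adjusted p = 0.000358). Of the 15, 7 were at least 2-fold higher in root control replicate 1 than in replicate 2, and none the other way. The shares over tested genes were 2.56% and 1.33%. In root salt 3 were at least 2-fold higher in replicate 1 and none in replicate 2, beside 0.93% and 1.38% of tested genes. The median root change of the 15 was 1.19 without root control replicate 1 and 1.11 without replicate 2. The medians over all tested genes were then 0.12 and 0.13. The counts of calls in root also moved with either root control replicate left out. No test was made of whether these lists differ from other genes.

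**Figure D4:**
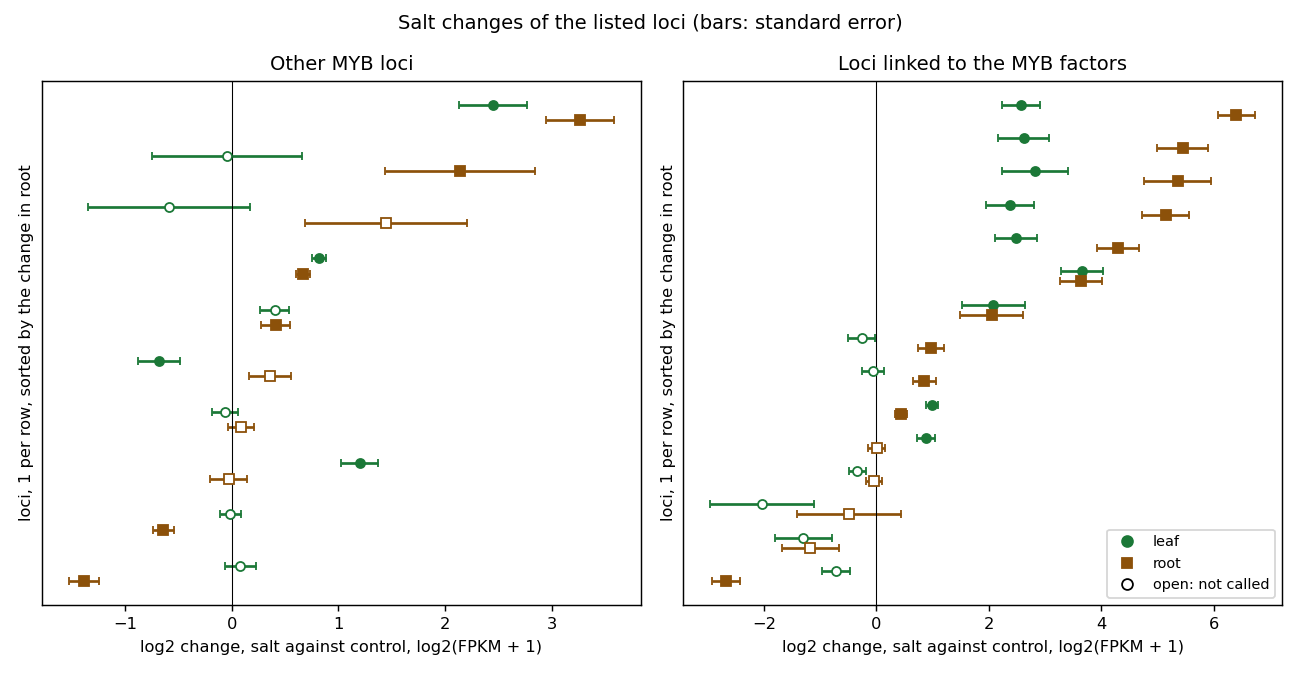
log2 change with salt on the log2(FPKM + 1) scale, with standard errors, of 10 other MYB loci (left) and 15 tested loci linked to the MYB factors (right), in leaf (green circles) and root (brown squares). Open symbols were not called. In the right panel 9 loci rose in leaf and 10 in root, beside 14.8% and 29.1% of all tested genes. These loci were chosen with earlier results of these data known.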

How the data were processed

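RNA sequencing libraries of leaf and root, with and without salt, were analysed from 1 deposited table per library. The authors deposited FPKM per gene with lower and upper confidence bounds, in the Cufflinks gene tracking format per the file headers. TopHat2 2.0.13, Cufflinks 2.2.1 and Cuffdiff are named per the submitters' processing notes. Genome build, annotation and strandedness were not given in the sources used here. None of the 6 loci overlaps another listed locus. Starts are printed 1-based.

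Genes with at least 1 FPKM in 2 of 8 libraries were tested as log2(FPKM + 1) in limma 3.58.1 (R 4.3.3), with 4 group means and variances that follow the mean. Benjamini-Hochberg adjustment ran over all tested genes. Depth is not stated. Fragment totals were taken from the bounds as the square of 2 × FPKM over the distance to the upper bound. They are a lower estimate, since bounds of an abundant gene such as MYB48 were wider than counting error. MYB48 had 40.6 FPKM and 640 implied fragments in leaf salt replicate 1. In root control replicate 1 it had 4084 FPKM and 2396 implied fragments. The fit was tested on simulated data with independent noise and without tissue differences. Such data hold no shared gap like that of root control replicate 1, so that case was not covered.

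Gene names came with the identifiers, and 4 of the 6 names are listed in the reference gene table (ASM3414082v1), which holds 0 of the 55797 identifiers. Other lists were assigned from general knowledge and are printed by identifier, up to the 3 largest called changes, without names. The genes and lists were chosen with earlier results of these data known. Alternatives covered pseudocounts, filters, scalings, libraries modelled, variance trend, replicate block and each library left out.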

Additional observations from a re-analysis of the deposited data

Results flagged for a closer look

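For 4 of the 6 MYB genes the tissues differed in their response to salt, by a test of the difference itself in limma. The difference, root minus leaf on the log2(FPKM + 1) scale, was 1.84 for MYB48 (adjusted p = 0.00228), which fell in both tissues and more in leaf. It was -1.48 for MYBS3 (adjusted p = 0.00122), which rose in leaf and fell in root. MYB3R-2 had a difference of -0.69 (adjusted p = 0.0119) and rose in leaf. MYB91 had 0.71 (adjusted p = 0.0331) and rose in root, and this difference was called without root salt replicate 2 but not with any other 1 library left out. Over all tested genes 32.8% had a called difference.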

How the results depend on the processing

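Over 510 combinations of gene, comparison and alternative, 476 kept direction and side of the threshold, 12 lost the call, 10 gained it and 12 turned direction. All that turned concern MYB2 and MYB4. Many alternatives could not turn a direction, since they change only the standard error or the adjusted p. These are the filters, the variance trend, the replicate block, the libraries modelled, and leaving out a library outside the comparison. For the difference between tissues, modelling only the groups compared repeats the main fit. The count of 476 is therefore no measure of robustness. The MYB4 difference of salt changes was 0.02 and became -0.005 with a pseudocount of 0.1, -0.17 with scaling to the 75th percentile and -0.14 with quantile normalization. With 1 library left out it ranged from -0.75 to 0.80, and the MYB4 root change from -0.23 to 1.32. MYB2 ranged from -0.88 to 0.48 for the difference of salt changes and from -0.36 to 0.997 for root against leaf controls. MYB2 in root against leaf with salt was -0.074 and -0.13 under the 2 scalings, in place of 0.11. The cause was not tested. Without 1 library, the genes called in leaf numbered 5185 to 7975, in place of 8027. The 2 scalings moved the median root change of all genes from 0.13 to 0 and -0.03, with 67.0%, 51.2% and 47.2% of calls higher. Relative to this, MYBS3 was -0.85 and -0.80 and MYB91 0.77 and 0.68 in root. The replicate numbers were not taken as pairs. Differences between replicates correlated over genes at -0.02 between leaf groups and 0.21 between root groups. With the replicate block 3 of the 6 genes were called in leaf, 3 in root and 4 for the difference, as without it. That block fits a replicate term common to both tissues, and a replicate effect within root alone was not tested. Precision is limited by 2 libraries per group.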
